A study of Saccharomyces cerevisiae with 95 samples.

Results

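TFIIE is a general transcription factor of RNA polymerase II, and its newly made copy was set here against its resident copy during the first minutes of galactose induction. The 6 libraries at 10, 20 and 25 min, 3 of the HA-tagged copy and 3 of the Myc-tagged copy, were taken out of 95 in the series by tag, factor and time, and each HA library was paired with the Myc library of the same time. Values were read counts in 4473 TFIIE sites, of which 4405 were nuclear and outside the ribosomal DNA, 54 were mitochondrial and 14 lay in the ribosomal DNA.

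The cells were W303 diploid budding yeast in which 1 allele of the TFIIE subunit gene TFA1 carried an N-terminal 3xHA tag behind the inducible GAL1 promoter and the other carried 9xMyc behind its own promoter. One copy of the second subunit gene, TFA2, was also behind GAL1 and had no tag. These alleles were present in all 16 TFIIE libraries. The TFIIB and TBP libraries came from separate strains, with a GAL1-driven HA allele and an own-promoter Myc allele of that factor's gene. Factor, strain and culture therefore cannot be told apart in comparisons between factors. The authors report that the competitor built up at reproducibly different rates between strains, so equal minutes need not be equal stages of induction. Their average half-time of competitor induction over the factors was later than 25 min, so the early libraries all came before it, when little HA protein was present. Cells grew in raffinose, and galactose was added to 2% at time 0 (10, 20 and 25 min here, and 30, 40, 60, 90 and 120 min for the later libraries). Competition ChIP-seq compares the DNA recovered with the antibody against each tag, so antibody, tag and copy of the protein cannot be told apart. The methods describe 1 culture per factor from which every time point was withdrawn, and separate multiplexed sequencing of the HA and Myc libraries, so tag and sequencing run cannot be told apart either. There was 1 library per tag and time: the time points stand in for replicates, and p-values measure only the spread between them. The authors called the sites on early Myc libraries, so the set of sites was itself chosen on Myc signal. RME1 and MF(ALPHA)1 were the only genes among those silent in diploids that had a site. At 10, 20 and 25 min the Myc level of RME1 lay at percentiles 4.03, 3.87 and 4.34 of promoter sites, and its HA level at 15.0, 0.312 and 5.50. For MF(ALPHA)1 the percentiles were 4.37, 12.5 and 15.4 in Myc and 5.62, 0 and 0 in HA.

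TFIIE joins the preinitiation complex late. It binds RNA polymerase II and the complex already laid down by TBP, TFIIA, TFIIB and TFIIF, recruits TFIIH and helps to open the promoter. It works at messenger RNA promoters and at snRNA and snoRNA genes read by polymerase II, whereas TBP also serves polymerases I and III. Centromeres, tRNA genes and mitochondrial DNA are not polymerase II promoters.

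Depth within sites ran from 8724892 to 13264786 counts in the HA libraries and from 14919641 to 18570928 in the Myc libraries. No site had a zero count, and the median counting error of a log2(HA/Myc) value was 0.0535 at 10 min and 0.0494 at 20 and at 25 min, a precision of counting only. Mitochondrial sites took 6.89%, 0.881% and 0.471% of counts in HA at 10, 20 and 25 min, against 0.774%, 0.495% and 0.319% in Myc. Ribosomal DNA sites took 10.3% to 12.6% in HA and 6.17% to 7.08% in Myc. The HA library at 10 min therefore stood apart from the other 5 in its mitochondrial share. It also had the lowest spread among nuclear sites, with an SD of log2 counts per bp of 0.535, against 0.659 in Myc at 10 min. Counts of calls without this time point are given beside the main counts below. Ratios are log2(HA/Myc) after each library was scaled to its total over nuclear sites outside the ribosomal DNA, so 0 marks a site whose share of the library was equal in both. The ratios do not show how much HA protein was present or bound.

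The sequences of 2 centromeres are printed because the highest ratios of the HA copy lay over such DNA. CEN13 (chrXIII:268031-268149) had the highest value over the 3 early pairs and CEN11 (chrXI:440129-440246, minus strand) the lowest of the class. Capitals mark the annotated elements CDEI, which Cbf1 binds, and CDEIII, which the CBF3 kinetochore complex binds. The lower-case stretch between them, CDEII, was 86.9% A or T in CEN13 and 95.2% in CEN11. Sequences and coordinates are from the RefSeq S288C genome, build R64 (sacCer3).
CEN13: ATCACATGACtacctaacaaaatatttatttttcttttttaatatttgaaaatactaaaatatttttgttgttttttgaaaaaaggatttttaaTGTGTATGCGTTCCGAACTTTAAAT
CEN11: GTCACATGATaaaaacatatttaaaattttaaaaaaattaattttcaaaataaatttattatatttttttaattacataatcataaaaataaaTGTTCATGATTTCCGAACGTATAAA

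For 4 promoters the 200 bases before the start codon are printed. URA1 (chrXI:25015-25214) and BTN2 (chrVII:772254-772453) were the sites with the highest ratios among the named promoters that hold a TATA motif, while QCR6 (chrVI:224770-224969, minus strand) and MIR1 (chrX:578191-578390, minus strand) had ratios far below 0 at 10 min. Capitals mark matches to the motif TATA followed by A or T, A, A or T, and A or G, searched on the gene's strand only. The motif occurred in 22.9% of the same stretch at 6002 coding genes and in 21.1% at the 3149 coding genes with an assigned TFIIE site. No match was found in the QCR6 and MIR1 stretches.
URA1: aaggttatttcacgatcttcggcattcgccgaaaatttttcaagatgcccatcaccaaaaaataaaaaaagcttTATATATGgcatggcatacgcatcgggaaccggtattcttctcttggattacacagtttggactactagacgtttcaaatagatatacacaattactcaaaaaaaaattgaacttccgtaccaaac
BTN2: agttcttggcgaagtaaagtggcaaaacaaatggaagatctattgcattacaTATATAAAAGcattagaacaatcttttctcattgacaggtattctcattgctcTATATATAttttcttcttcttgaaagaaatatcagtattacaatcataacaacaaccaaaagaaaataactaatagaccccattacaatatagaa
QCR6: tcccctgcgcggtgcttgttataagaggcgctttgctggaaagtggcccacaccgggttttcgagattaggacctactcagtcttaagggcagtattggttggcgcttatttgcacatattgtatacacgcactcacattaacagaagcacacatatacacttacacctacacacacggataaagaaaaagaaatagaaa
MIR1: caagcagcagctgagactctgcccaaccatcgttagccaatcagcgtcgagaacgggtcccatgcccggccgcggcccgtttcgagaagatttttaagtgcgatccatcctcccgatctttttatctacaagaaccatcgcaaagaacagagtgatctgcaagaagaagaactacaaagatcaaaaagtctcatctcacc

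The first question was how closely the new copy followed the resident copy over the genome. Across the 4405 nuclear sites, Spearman's rho between HA and Myc counts per bp was 0.570 at 10 min, 0.938 at 20 min and 0.928 at 25 min. These values describe sites within libraries, which share depth and base composition, and carry no test. At 10 min the HA library resembled its own tag little more than it resembled Myc: rho was 0.652 with HA at 20 min and 0.565 with HA at 25 min. The Myc libraries resembled each other at rho 0.923 to 0.973. The SD of the ratio over sites was 0.468, 0.182 and 0.210 at 10, 20 and 25 min. At 10 min 186 sites (4.22%) differed by more than 2-fold, against 11 (0.25%) at 20 min and 6 (0.136%) at 25 min.

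Sites where the resident copy was high had the lower ratios. Across nuclear sites, rho between the ratio and the Myc level was -0.667, -0.545 and -0.668 at 10, 20 and 25 min, a relation in which Myc enters both measures. The ratio also followed base composition at 10 min. Its rho with the GC content of the site was -0.737 at 10 min, -0.209 at 20 min and 0.0627 at 25 min. The sites were split by GC content into 5 equal groups, and from the group poorest in GC to the richest the median ratio at 10 min was 0.57, 0.29, 0.11, -0.06 and -0.31. At 25 min the same groups lay between 0.07 and 0.11.

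**Figure D1:**
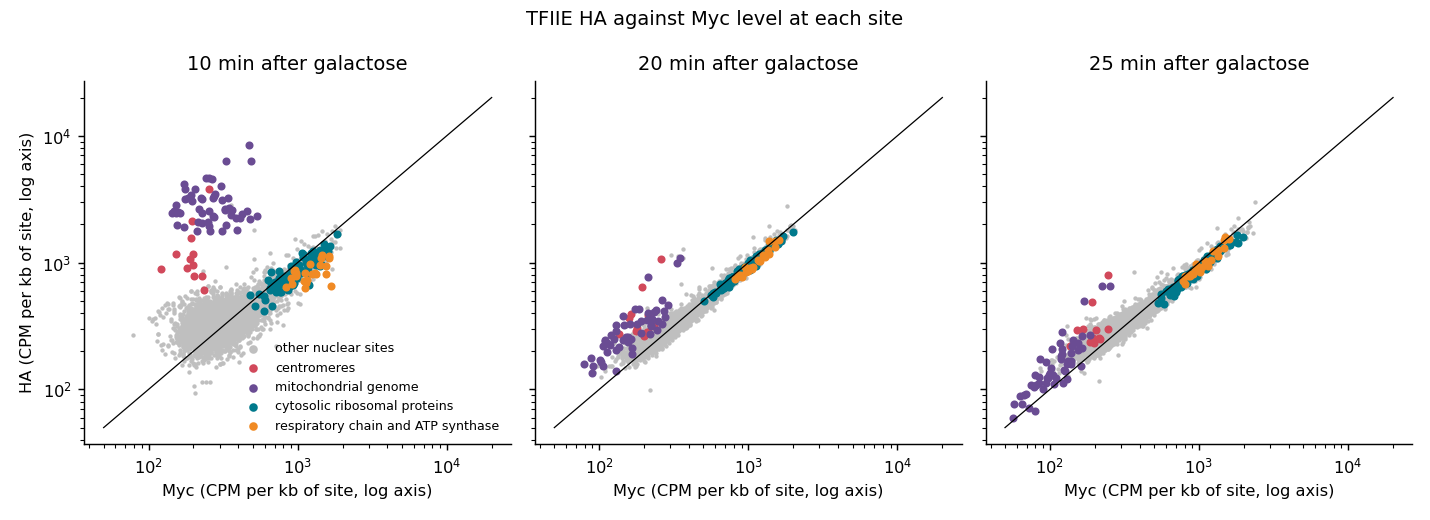
HA level (vertical) against Myc level (horizontal) at each site, in CPM (counts scaled to the nuclear total of the library) per kb of site on log axes, in 1 panel per time; each point is 1 site, the line marks equal levels, and colours mark 4 site classes. Mitochondrial and centromere sites lie above the line at 10 min, where nuclear points scatter most (rho 0.570).

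**Figure D2:**
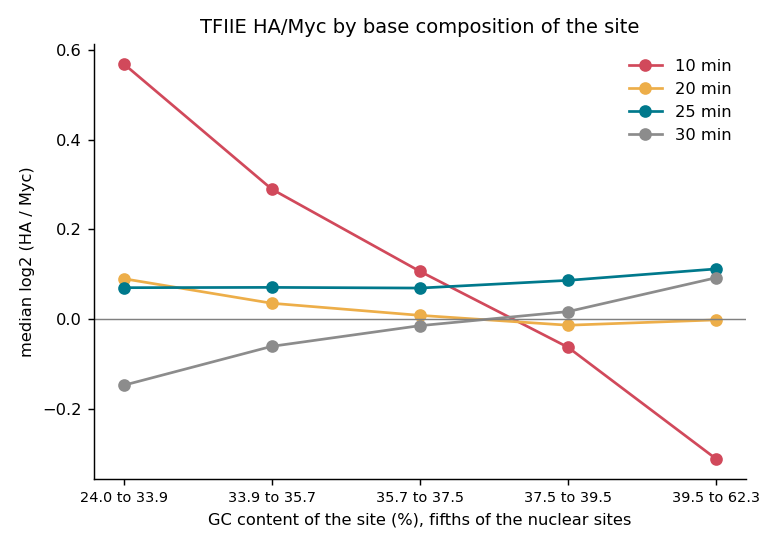
Median log2(HA/Myc) (vertical) in 5 groups of nuclear sites by GC content in percent (horizontal), 881 sites each, with 1 line per time at 10, 20, 25 and 30 min. At 10 min the medians run from 0.57 in the GC-poorest group to -0.31 in the richest.

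The main comparison asked which sites took a higher or lower share in HA than in Myc over the 3 early pairs. No site passed in edgeR's quasi-likelihood test with time as a block (Benjamini-Hochberg adjusted p under 0.05): 0 of 4473 sites were higher in HA (0%) and 0 lower (0%), while 658 sites had an unadjusted p under 0.05 and the lowest adjusted p was 0.172. DESeq2's Wald test on the same model called 120 sites higher and 3 lower. The ratio had the same sign at all 3 times in 2122 nuclear sites, above 0 in 1510 and below 0 in 612.

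The count depended on the 10 min pair. With 20 and 25 min alone, edgeR called 503 sites higher in HA (11.2% of sites tested) and 233 lower (5.21%), with 1 residual degree of freedom per site. Without 25 min, 135 were called higher and 3 lower, and without 20 min none was called (465 at an unadjusted p under 0.05). With each library corrected for a smooth trend on GC content, an alternative chosen after seeing the data, the 3 pairs gave 47 sites higher (1.05%) and 15 lower (0.335%). Counts of members below are from the 20 and 25 min test unless another is named, a choice made after the 3 pairs had called no site. Both times came from the same culture, so these calls do not measure spread between cultures. This test was not repeated with other scaling or with the GC correction, so how its counts depend on either is not known.

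Centromeres held the highest HA/Myc ratios of the nuclear genome, with CEN13 the highest nuclear site at each of the 3 times. Sites covered 12 of the 16 centromeres, and all 12 had a ratio above 0 at every time. Their median was 2.52 at 10 min, 0.82 at 20 min and 0.47 at 25 min, against 0.14, 0.02 and 0.08 over all nuclear sites. All 12 were called higher in HA at 20 and 25 min, against the 11.2% of all sites, and 4 passed over the 3 pairs after the GC correction. The centromere sites were AT-rich (median GC 29.2%, against 36.6% for nuclear sites), and the part of base composition in their ratio was not tested beyond that correction.

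CEN13 had 6983, 3209 and 2064 counts in HA at 10, 20 and 25 min, against 1072, 919 and 1084 in Myc. The HA counts were lower at each later time, the Myc counts stayed within a narrow range, and the tags did not overlap. The ratio was 3.90, 2.04 and 1.69, and the fit over the 3 pairs gave 2.52 ± 0.44 (SE, adjusted p = 0.328). CEN2 and CEN5 were at 3.02 and 2.92 at 10 min.

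CEN11, printed above, was the lowest over the 3 pairs, with 3953, 3045 and 2343 counts in HA and 3536, 2627 and 3307 in Myc. Its ratios were 1.36, 0.44 and 0.26, and like all 12 centromere sites it stood above the nuclear median at all 3 times. At 25 min CEN12 and CEN7 were lower than CEN11, at 0.20 and 0.24. The CEN11 site is 908 bp long and overlaps MET14, whereas the CEN13 site spans chrXIII:267978-268233. The classes overlap: some centromere sites, CEN13 among them, lie between convergent gene ends and are counted there too, and the sites assigned to ERG26, CIT3 and RRP6 lie over CEN7, CEN16 and CEN15.

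**Figure D3:**
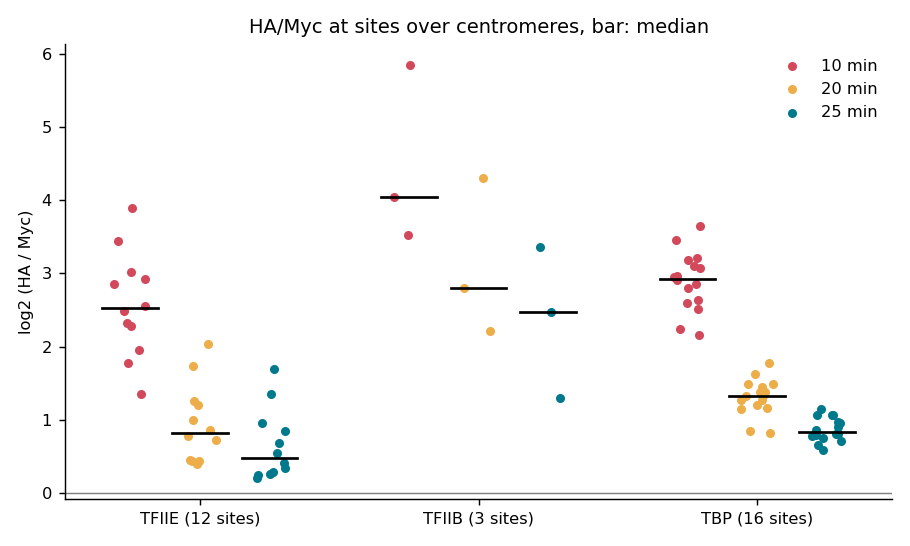
log2(HA/Myc) (vertical) at each site over a centromere for TFIIE, TFIIB and TBP at 10, 20 and 25 min; points are sites, bars are medians, and each factor has its own set of sites. TFIIE medians are 2.52, 0.82 and 0.47, against 4.05, 2.80 and 2.47 in TFIIB and 2.93, 1.32 and 0.84 in TBP.

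Mitochondrial sites, which carry no nuclear preinitiation complex, had ratios as high. Their median was 3.52, 0.77 and 0.42 at 10, 20 and 25 min, with all 54 above 0 at 10 and 20 min and 49 at 25 min. At 20 and 25 min 45 of 54 were called higher and none lower. The site chrM:61707-62148, over the 21S ribosomal RNA gene and the homing endonuclease gene SCEI within it, was the highest over the 3 pairs and had 20120, 3970 and 2219 counts in HA and 2420, 1291 and 1287 in Myc.

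Repeated and polymerase III DNA also lay above 0. Classes by feature and by position were set independently, so a site can be counted in more than 1 of them. The lowest 10 min ratio was the same in the Ty or LTR and the tRNA class, at -0.81. Of 182 sites over Ty elements or their LTRs, 107 were called higher in HA and 2 lower, and 139 were above 0 at all 3 times. Their median was 0.77, 0.24 and 0.31. Reads of such repeats map to several copies, so single Ty sites are uncertain. Of 105 sites over tRNA genes, 43 were called higher and 3 lower, with a median of 0.44, 0.17 and 0.23. The highest was YNCE0010W, a tRNA gene beside GCN4, with 1117, 933 and 681 counts in HA and 943, 635 and 656 in Myc and ratios of 1.44, 0.79 and 0.81. After the GC correction 14 tRNA sites and 8 Ty or LTR sites passed over the 3 pairs.

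Sites between convergent gene ends and near chromosome ends were also called higher more often than lower. Between convergent gene ends 45 of 110 sites were called higher and 4 lower, with medians of 0.80, 0.21 and 0.25. Within 10 kb of a chromosome end 33 of 81 were called higher and 0 lower, and here the median was higher at each later time (0.05, 0.17 and 0.34). Inside genes 80 of 417 were called higher and 15 lower, with medians of 0.04, 0.05 and 0.17, and at 10 min that lay below the nuclear median of 0.14. Of these 417 sites 158 were assigned to a promoter, and the other 259 gave 63 higher and 5 lower, with medians of 0.03, 0.08 and 0.20.

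URA1, the dihydroorotate dehydrogenase gene of pyrimidine synthesis, had the highest ratio among sites assigned to a gene. It held 11138, 6986 and 4690 counts in HA, against 3214, 2747 and 3447 in Myc. Every HA count stood above every Myc count. The ratio was 2.99, 1.58 and 1.20, and the fit gave 1.91 ± 0.35 (SE, adjusted p = 0.328; 0.031 after the GC correction). URA3, which encodes a later enzyme of the pathway and is a common marker, had ratios of 1.35, 0.49 and 0.45.

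BTN2, a chaperone gene that sorts misfolded proteins, led the heat shock genes. It had 2946, 3569 and 3520 counts in HA and 2456, 2193 and 4031 in Myc, so the counts of the tags overlapped before scaling. Its ratio was 1.46, 0.93 and 0.56. A site between RPS8B and SSA4, an HSP70 gene (chrV:364033-364490), lay outside the promoter window and had ratios of 1.90, 1.07 and 0.84. ZPR1, a zinc finger protein gene, had 1.83, 0.67 and 0.43. Of 14 heat shock and chaperone sites, 6 were called higher and 2 lower. Over the 3 pairs the lowest was SSC1, the mitochondrial HSP70 gene, at -1.06, -0.07 and 0.04. At 20 and 25 min the lowest values of the list were other sites, at -0.29 and -0.34.

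A site over the 3′ end of TDH3, the main glyceraldehyde-3-phosphate dehydrogenase gene (chrVII:882640-883037), had the most even ratio of the high sites. It held 1183, 1494 and 1487 counts in HA and 1206, 836 and 1200 in Myc. The ratio was 1.17, 1.07 and 1.07, and the fit gave 1.10 ± 0.10 (SE, edgeR adjusted p = 0.172), the lowest adjusted p of all sites. It passed after the GC correction (adjusted p = 0.0020). A site at the 3′ end of GAL2 (chrXII:291641-292075) had ratios of 1.78, 0.91 and 1.28.

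The galactose genes themselves, which are switched on by the same treatment, were already high in both tags at 20 min. The GAL7 site had 9386, 38326 and 39080 counts in HA and 18228, 30340 and 46307 in Myc. Its ratio was 0.24, 0.57 and 0.51, and 5 of 6 sites of Gal4-regulated genes were called higher and 1 lower. GAL2, the galactose permease gene, had 0.29, 0.48 and 0.31. The site over the GAL1 and GAL10 promoters, named after its values were seen, had 0.47, 0.62 and 0.35. The lowest of the 6 over the 3 pairs was MTH1, a glucose-sensing regulator, at -0.02, -0.12 and -0.42. At 10 min 3 of the 6 were above 0 and the lowest was another site, at -0.56. The GAL1 promoter sequence is also present at the GAL1-driven TFA1 and TFA2 alleles, and reads of those copies cannot be told apart from the chromosomal locus.

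Sites of ribosomal protein, respiratory and translation factor genes lay below 0 in the median. None of 93 sites of cytosolic ribosomal protein genes was called higher and 28 were called lower, against the 5.21% of all sites, and 70 were below 0 at all 3 times, against 612 of 4405 nuclear sites. Their median was -0.21, -0.07 and -0.13, a small difference. The median level was 761, 859 and 805 CPM per kb in HA and 908, 898 and 882 in Myc. RPS0A, a small-subunit protein gene, was the lowest over the 3 pairs with 3283, 8432 and 7358 counts in HA and 13451, 11011 and 12697 in Myc, and its ratio was -0.84, -0.15 and -0.03. With a correction for the trend on average level, the median of the list over the 3 pairs was -0.021, against -0.14 with total scaling, so the result moved with the level of the sites. After the GC correction 1 of the 93 sites passed as lower over the 3 pairs and 0 as higher, at a list median of -0.20.

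Genes of the respiratory chain and ATP synthase had a median of -0.53, -0.17 and -0.13. Of 25 sites, 13 were called lower and 0 higher, and 21 were below 0 at all 3 times. COX5A, a cytochrome c oxidase subunit gene, was the lowest over the 3 pairs at -0.94, -0.19 and -0.10. Translation factor genes gave 7 of 25 lower and 0 higher, with medians of -0.11, -0.11 and -0.12. After the GC correction 0 sites of either list passed over the 3 pairs, at medians of -0.27 for respiratory and -0.17 for translation factor genes.

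The sites assigned to genes with the lowest ratios were MIR1, PRY3, COX20, PAR32, IXR1, CCT6, CPP1, GUT2, ALD4 and YCL042W, none past the threshold over the 3 pairs. MIR1, the mitochondrial phosphate carrier gene, had 1830, 5392 and 4606 counts in HA and 9220, 7004 and 9633 in Myc. The HA counts were all below the Myc counts, but so were the median counts per site of these libraries (1109 to 1591 in HA, 1837 to 2210 in Myc). The scaled ratios were -1.14, -0.15 and -0.31. PRY3, a sterol-binding cell wall protein gene, had 1276, 2848 and 3107 in HA and 5380, 4613 and 6104 in Myc, and its ratio was -0.88, -0.46 and -0.22. GUT2, ALD4 and COX20 serve mitochondrial metabolism, and their ratios at 10 min were -0.99, -0.75 and -1.09. The sites of GUT2, CPP1, YCL042W, COX20, CCT6 and PAR32 were GC-rich. They held 52.1%, 52.2%, 47.4%, 45.6%, 45.6% and 45.3% GC, against a nuclear median of 36.6%. After the GC correction their fits over the 3 pairs gave -0.21, -0.22, -0.25, -0.35, -0.31 and -0.33. The part of base composition in these ratios was not tested beyond that correction.

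Of 51 ribosome biogenesis sites, 1 was called higher and 3 lower, with medians of 0.25, -0.01 and -0.05. Proteasome genes gave 0 of 25 higher and 3 lower, and amino acid biosynthesis genes 2 of 32 in each direction. Of 37 snRNA and snoRNA sites 1 was called higher and 6 lower, against 5.21% lower of all sites. Their medians were -0.10, -0.03 and -0.11, and 16 were below 0 at all 3 times. After the GC correction 0 of these 37 sites passed over the 3 pairs. Promoters with the TATA motif had medians of 0.08, 0.02 and 0.08 (665 sites) and those without it 0.16, 0.00 and 0.07 (2484 sites). Sites were assigned to 4 genes of general transcription factors, TFG2, TOA2, TOA1 and SUA7. Their ratios lay between -0.39 and 0.19 over the 3 times.

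**Figure D4:**
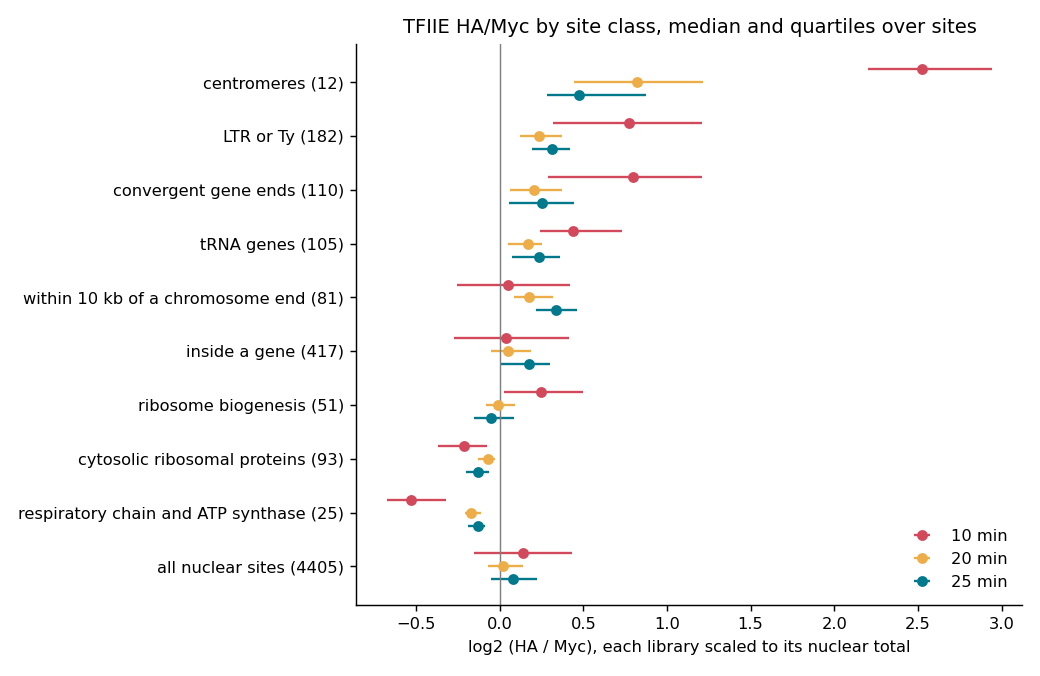
Median log2(HA/Myc) of site classes and gene lists at 10, 20 and 25 min (horizontal, points) with the quartiles over sites (bars) and the number of sites in brackets. Centromeres, Ty and convergent sites lie right of 0, and ribosomal protein and respiratory genes left of 0, at all 3 times.

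The next comparison asked how the ratio moved inside the early window. At 20 and 25 min against 10 min, 655 sites rose (14.6%) and 1027 fell (23%) by edgeR, with 1 residual degree of freedom per site. With TMM scaling 813 rose and 750 fell, so rising sites were 38.9% of calls with total scaling and 52.0% with TMM. After the GC correction 207 rose (4.63%) and 259 fell (5.79%), and of these 110 and 195 were also called without it. The test rests on a single 10 min pair, whose base composition and mitochondrial share were given above.

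The classes highest at 10 min fell. Their 10 min ratios also enter this test, and the SD of the ratio over sites was 0.468 at 10 min, against 0.182 and 0.210 at 20 and 25 min. Movement of extreme sites toward 0 was therefore partly built into the comparison, for high and low sites alike. All 12 centromere sites and all 54 mitochondrial sites fell, with or without the GC correction. Of 182 Ty or LTR sites 115 fell and 6 rose, and after the GC correction 10 fell and 1 rose. Those 10 of 182 were near the share of all sites that fell after the correction (5.79%). The CEN7 site assigned to ERG26 fell by 1.98, the CEN16 site assigned to CIT3 by 1.72 and URA1 by 1.60.

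QCR6, a cytochrome bc1 complex gene, rose most among assigned sites. It had 2336, 8708 and 8030 counts in HA and 13862, 9520 and 12866 in Myc. The HA count at 10 min was the lowest of the 6, as was the median count per site of that library (1109). The ratio was -1.37, 0.10 and 0.08, and its 10 min value was the lowest of all assigned promoters. The change was 1.46 ± 0.10 (SE, edgeR adjusted p = 6e-36), and 0.53 after the GC correction (adjusted p = 0.012). DIF1, which controls the import of ribonucleotide reductase, rose by 1.26 and PAR32 by 1.22. Of 25 respiratory sites 16 rose and 0 fell, and of 93 ribosomal protein sites 30 rose and 7 fell. After the GC correction 2 and 5 of these rose, against 4.63% of all sites, and the 5 of 93 were near that share. The QCR6 and MIR1 stretches printed above were 55.5% and 50.5% A or T, against 64% for URA1 and 71.5% for BTN2.

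**Figure D5:**
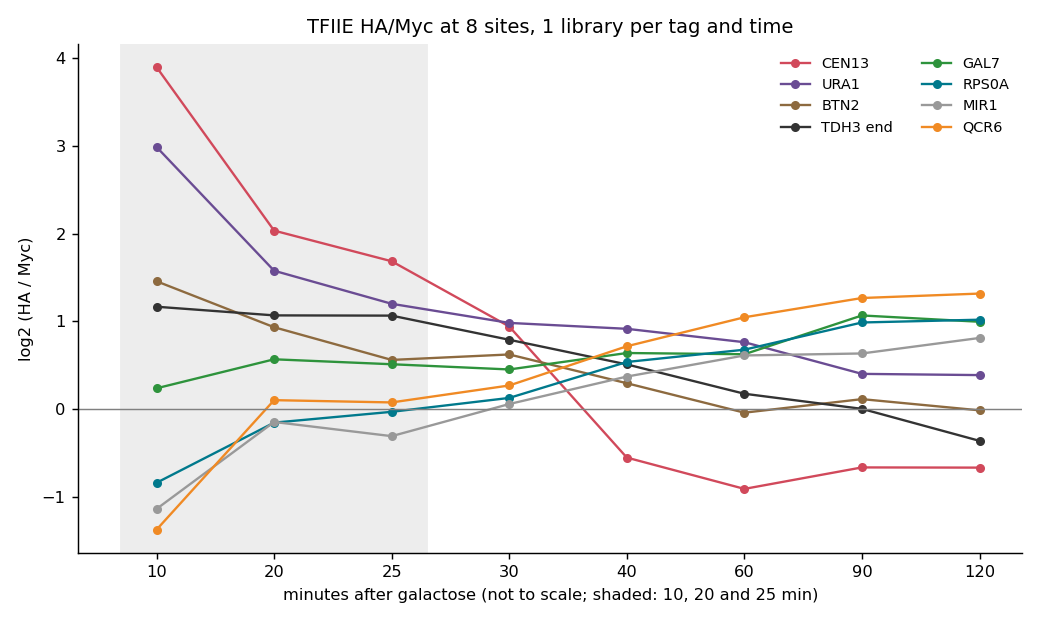
log2(HA/Myc) (vertical) at 8 sites at each time after galactose in minutes (horizontal, evenly spaced and not to scale), 1 library per tag and time, with the early window shaded. CEN13 and URA1 start at 3.90 and 2.99 and QCR6 at -1.37, and the TDH3 end is at 1.17, 1.07 and 1.07 in the shaded window.

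The early window was then set against the rest of the course. The HA/Myc ratio was higher early than at 30 to 120 min at 1677 sites (37.5%) and lower early at 361 (8.07%), around an all-site median shift of 0.28 on the log2 scale. With TMM scaling, which removes that shift, 970 were higher early (21.7%) and 842 lower (18.8%). The calls needed the libraries after 60 min: against 30 to 60 min alone no site passed in either direction, with fewer samples and 1986 sites at an unadjusted p under 0.05. Without 10 min the counts were 509 and 34. The Myc libraries at 90 and 120 min stood apart, with an SD of log2 counts per bp of 0.296 and 0.299 and mitochondrial shares of 5.03% and 4.8%. Their part in the difference was not tested beyond this window.

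All 12 centromere sites and all 54 mitochondrial sites were higher early, with or without 10 min. Of 182 Ty or LTR sites 149 were higher and 1 lower, and without 10 min 112 and 0. YIL060W, an open reading frame, and YOR192C-C, in a Ty element, were 2.15 and 1.97 higher early, and the CEN7 site 1.97. Ribosomal protein sites ran the other way, with 0 of 93 higher early and 56 lower, as did respiratory sites, with 0 and 18 of 25. Most of these calls depended on the 10 min pair, since without it 5 ribosomal protein sites and 1 respiratory site were lower. The list medians were then -0.45 and -0.40, against -0.51 and -0.53 with all 3 pairs. QCR6 was lower early, at -1.31 ± 0.33 (SE, edgeR adjusted p = 0.012), and at -0.83 without 10 min (edgeR adjusted p = 0.045). SSC1 was at -1.16 and SNR8, a snoRNA gene, at -1.05, and SNR8 did not pass without 10 min.

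TFIIE was set against TFIIB, which enters the complex before it, on 3258 pairs of sites overlapping by at least 50% each way. No site passed in edgeR: 0 were higher in TFIIE (0%) and 0 lower (0%), with 307 at an unadjusted p under 0.05. DESeq2 called 12 higher and 21 lower, and edgeR without 10 min called 68 and 78. URA1 was the highest of the named sites in that difference, with TFIIE ratios of 2.99, 1.58 and 1.20 against TFIIB ratios of 0.63, 0.13 and 0.50, a difference of 1.49 ± 0.36 (SE, adjusted p = 0.309). The median over TFIIB's own 3 centromere sites was 4.05, 2.80 and 2.47. Ribosomal protein medians were -0.57, -0.51 and -0.50 there, and 0 of 79 paired sites differed past the threshold.

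TFIIE was also set against TBP, the factor that starts complex assembly, on 1878 pairs of sites. In the comparisons with TFIIB and with TBP, strain and culture differed along with the factor. Here 47 sites were higher in TFIIE (2.5%) and 498 lower (26.5%), around a median of -0.38 on the log2 scale. With TMM scaling, which takes out most of that shift, 35 were higher (1.86%) and 2 lower (0.106%). The counts moved with the pair left out. Without 10 min 106 were higher and 906 lower, without 20 min 27 and 10, and without 25 min no site passed in either direction in edgeR, with 578 at an unadjusted p under 0.05. No list below therefore had a call without 25 min.

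tRNA genes were where TFIIE and TBP differed in both scalings. Of 48 paired tRNA sites 41 were higher in TFIIE and 0 lower, and 28 were higher with TMM. Without 10 min 44 were higher and without 20 min 25. TFIIE's own tRNA medians were 0.44, 0.17 and 0.23 over 105 sites, against -1.63, -0.81 and -0.69 in TBP over 266 sites. Among assigned sites past the threshold the 3 named for a positive difference included 2 in Ty elements, YMR045C at 1.46 and YDR098C-B at 1.01. SUA5, whose product modifies tRNA and whose site lies beside a tRNA gene, was at 1.45. Of 88 Ty or LTR sites, 16 were higher and 1 lower, and with TMM 12 and 0. Without 10 min 44 Ty or LTR sites were higher and 4 lower, and without 20 min 10 and 0.

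Lower calls were unevenly spread over the promoter lists, and nearly all were lost with TMM. Of 63 ribosomal protein sites 54 were lower and none higher, against 26.5% lower of all sites, while 0 were lower with TMM or without 20 min and 63 without 10 min. Translation factors gave 14 of 16 lower, proteasome genes 13 of 22, amino acid biosynthesis genes 10 of 17, mitochondrial ribosomal proteins 12 of 24 and ribosome biogenesis 14 of 35. Respiratory genes gave 4 of 17 and snRNA and snoRNA genes 8 of 32. None was lower among 7 glycolysis, 6 cell wall and 3 histone sites. NOG1, a ribosome assembly GTPase gene, was at -1.14 ± 0.16 (SE, adjusted p = 0.012) and kept its call with TMM (adjusted p = 0.030). OXA1, a mitochondrial insertase gene, was at -1.15 and MIR1 at -1.12, and neither passed with TMM. At centromeres 8 sites could be paired and none passed, at a median difference of -0.26. Without 10 min 1 was higher and 5 were lower.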

How the data were processed

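Chromatin immunoprecipitation libraries of TFIIE-HA and TFIIE-Myc at 10, 20 and 25 min were used, with TFIIE at later times, TFIIB and TBP for comparison. The deposited counts are whole reads per site and are not normalized: the authors mapped reads to sacCer3 with Bowtie2 2.2.6, called and merged peaks of several early Myc libraries against input with MACS2 2.1.0.20151222, and counted reads with bedtools. All columns were mapped to a sample.

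Library size was the total over sites off chrM and outside the ribosomal DNA. edgeR 4.0.16 (quasi-likelihood, R 4.3.3) was fitted to all sites with a mean of at least 10 counts, with time point as a block, and p-values were Benjamini-Hochberg adjusted over all sites at 0.05. All sites passed the filter. Residual degrees of freedom per site were 2 for the early fit, 1 within the early window, 6 against later times and 4 between factors. Within the early window the moderated spread of a site came almost wholly from the trend over all sites (381 prior degrees of freedom), so its p-values lean on that trend. The 3 time pairs alone allow no exact permutation p below 0.25 (two-sided), so none is given. The same libraries were refitted with TMM, with DESeq2 1.42.0, with limma 3.58.1 on log2 ratios (pseudocount 0.5 or 5 CPM) and with smooth trends on level or GC content. Scripts were tested on simulated data. Python 3.11.15 was used for descriptions and matplotlib 3.10.9 for figures.

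A site was assigned to a gene when its midpoint lay 250 bp upstream to 100 bp downstream of the annotated start, 1 site per gene (3201 sites). Gene lists gave counts and medians only. Named sites were the 10 highest and 10 lowest with the same sign at all times, the extremes of each list, fixed names, and the 3 largest in each direction of the other comparisons. The 3′ TDH3 and GAL2 sites, the SSA4 site and the GAL1 and GAL10 site were chosen after their values were seen. Members and lists were chosen with earlier results of these data known. The GC trend and the 30 to 60 min window were added after seeing the data.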

Additional observations from a re-analysis of the deposited data

Results flagged for a closer look

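The sites and counts below are those where the HA/Myc ratio differed between times or between factors by a test of the difference itself.

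Within the early window, 655 sites rose at 20 and 25 min against 10 min and 1027 fell. The largest changes among assigned sites were 1.46 at QCR6, 1.26 at DIF1 and 1.22 at PAR32, and -1.98 at ERG26 (over CEN7), -1.72 at CIT3 (over CEN16) and -1.60 at URA1. All 6 came from the same 10 min pair, and the fits with the GC correction gave 0.53, 0.43, 0.61, -1.22, -1.23 and -1.56 in that order.

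Between the early window and 30 to 120 min, 1677 sites were higher early and 361 lower. YIL060W was at 2.15, YOR192C-C at 1.97 and ERG26 at 1.97, while QCR6 was at -1.31, SSC1 at -1.16 and SNR8 at -1.05. None of these 6 passed against 30 to 60 min alone.

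Between TFIIE and TBP, 47 sites were higher in TFIIE and 498 lower. YMR045C was at 1.46, SUA5 at 1.45 and YDR098C-B at 1.01, and OXA1 was at -1.15, NOG1 at -1.14 and MIR1 at -1.12. With TMM scaling the first 3 and NOG1 passed.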

How the results depend on the processing

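The early count of 0 higher and 0 lower stayed at 0 with TMM, DESeq2 size factors, all-site totals, a trend on level, either count filter, limma at both pseudocounts and background subtraction. It became 10 higher with all 16 TFIIE libraries in 1 fit, 120 higher and 3 lower with DESeq2's Wald test, and 47 higher and 15 lower with the GC trend. Leaving out 1 time gave 0 to 503 higher and 0 to 233 lower. Without pairing HA and Myc by time (no replicate block), 0 sites were higher and 0 lower, with 738 at an unadjusted p under 0.05. Within the early window the rising and falling counts were 259 and 367 with DESeq2's Wald test (4299 sites with an adjusted p) and 207 and 259 with the GC trend. Early against later, sites higher early were 929 with size factors, 970 with TMM, 605 with the trend on level, 586 with the GC trend and 0 against 30 to 60 min. Sites lower early were 678 with all-site totals, 874 with size factors, 842 with TMM and 0 against 30 to 60 min. Leaving out 1 time gave 509 to 1405 higher and 34 to 320 lower. Against TFIIB, DESeq2's Wald test gave 12 higher and 21 lower, and leaving out 1 time 0 to 68 higher and 6 to 78 lower. Against TBP, the trend on level gave 29 higher and 35 lower, an 80% overlap 11 higher and 34 lower (229 pairs), size factors and TMM each 2 lower, and leaving out 1 time 0 to 106 higher and 0 to 906 lower. The ribosomal protein median moved to -0.22 with TMM and -0.021 with the trend on level, and the ribosome biogenesis median to -0.10 with the GC trend. With counts per site in place of counts per bp, rho at 10 min was 0.908. Over the named sites, 510 of the values under other settings kept direction and side of the threshold, 51 passed it newly and 22 lost it, and none of these changed direction. The change within the window without 20 or 25 min leaves no residual degree of freedom and has no test.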

Other observations

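One site in the ribosomal DNA, chrXII:489728-490413, had a high ratio at all 3 times: 12053, 16350 and 19027 counts in HA and 13628, 11441 and 15181 in Myc, with ratios of 1.02, 0.75 and 1.08 (edgeR adjusted p = 0.201). It lies among repeated units, whose reads map to several places. Over the 14 ribosomal DNA sites the medians were 0.17, 0.13 and 0.29.

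MF(ALPHA)1, listed above among genes silent in diploids, had the lowest HA level of all assigned promoters at 20 and at 25 min, at percentile 0. Its level was 236, 98.2 and 117 CPM per kb in HA at 10, 20 and 25 min, against 192, 220 and 213 in Myc.

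The methods list a primer pair for checking the precipitations under the name of the URA3 promoter. Both primers match the URA1 stretch printed above exactly. Whether that bears on the URA1 counts was not tested.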
